A study of Mus musculus with 4 samples.

Results

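The syndecans and glypicans are the cell-surface core proteins that carry heparan sulfate. All 10 mouse members were chosen by name, the 4 syndecans Sdc1 to Sdc4 and the 6 glypicans Gpc1 to Gpc6, from the 34682 gene symbols of a count table. RNA of ovaries at E13.5 was measured by bulk RNA-seq in 4 libraries, 2 of a Sall1-overexpressing mutant and 2 of the wild type. In the mutant, a bacterial artificial chromosome carrying regulatory elements of Wt1 drove the coding sequence of Sall1. It was integrated with piggyBac into female C57BL/6J embryonic stem cells, from which transgenic mice were made by morula aggregation, so the mutant ovaries trace back to engineered cell clones. Whether the sequenced embryos came directly from aggregation or from later breeding is not stated. For its transgenic experiments in general the study also names a hybrid background. The wild-type libraries carried no transgene. The study's text names littermates as controls in one place and CD1 gonads in another, while the column names of the wild-type libraries give B6, so the strain of the controls was not settled here. Nothing in the labels says that the libraries came from separate animals, and p-values measure the spread between these samples, which may be technical.

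Syndecans are single-pass transmembrane proteins whose short cytoplasmic tails bind cytoskeletal and signalling proteins, whereas glypicans are held in the outer leaflet of the membrane by a glycosylphosphatidylinositol anchor. Their heparan sulfate chains bind FGFs, WNTs, BMPs and Hedgehog proteins and set how far these ligands travel and how well they reach their receptors. In the fetal gonad, cells exchange such ligands between the germ cells, the supporting cells and the interstitium.

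Library totals ran from 11036313 to 17869840 counts, and 15442 genes passed the filter on low counts. Sall1 itself was found at 113 and 96.0 CPM (counts per unit of the library total over the genes tested, after TMM scaling) in the mutant and at 16.2 and 12.6 CPM in the wild type, a log2 difference of 2.85 (SE 0.16, adjusted p = 0.00823 by the quasi-likelihood test of edgeR, adjusted after Benjamini and Hochberg as are all adjusted p-values here). The median log2 difference of all genes tested was -0.00088. The 2 libraries of each genotype differed from each other by more than sampling noise. Genes of skeletal muscle and blood varied between libraries of the same genotype. Summed muscle markers were at 229 CPM in wild-type replicate 1 and between 37.3 and 65.9 CPM elsewhere. Summed blood markers were at 3150 and 863 CPM in mutant replicates 1 and 2. In wild-type replicates 1 and 2 they were at 3463 and 1662 CPM, so replicate 1 was higher in both genotypes.

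All members except Gpc5 were expressed in the ovary, and Gpc3 stood above the others. Levels of different genes were compared per length, as CPM divided by the length in kilobases of the longest coding transcript. On that scale Gpc3, the glypican whose loss causes overgrowth and which restrains Hedgehog signalling, was at 114 ± 1.02 (SD, n = 2) in the wild type and 115 ± 27.6 in the mutant. Next in the wild type came Sdc1, the syndecan of epithelia and plasma cells, at 33.0 ± 0.514, and Gpc4 at 31.4 ± 0.134. Gpc3 was above every other member in all 4 libraries.

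The middle of the order was crowded. Sdc4, a focal adhesion syndecan that signals through protein kinase C alpha, was at 26.3 ± 4.47 per kilobase in the wild type, and Gpc2, known from developing neurons, at 24.3 ± 2.62. Gpc1, Sdc2 and Sdc3 followed at 21.4 ± 3.79, 21.3 ± 0.741 and 17.7 ± 0.611. The neighbours Sdc4 and Gpc2, Gpc2 and Gpc1, and Gpc1 and Sdc2 were not separated by the 2 wild-type libraries, while Sdc1 and Gpc4, Gpc4 and Sdc4, and Sdc2 and Sdc3 were separated in the wild type but not in all 4 libraries. Gpc6 came lowest of the expressed members at 8.38 ± 0.445, below Sdc3 in every library. This order depends on the length used. Per length of the union of all exons, Gpc4 came before Sdc1 in both wild-type libraries (12.4% and 12.9% against 10.9% and 11.1% of the summed level of the 10 cores), and Gpc2 came next above Gpc6 (3.05% against 2.42% on average), while Gpc3 stayed first.

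Gpc5 was not detected above the floor. It had 0 counts in both mutant libraries and in wild-type replicate 1, and 1 count in wild-type replicate 2. A count of 3 was the floor, which corresponds to 0.170 to 0.272 CPM in these libraries, and no difference between genotypes was computed for Gpc5. Gpc5 and Gpc6 are neighbours on chromosome 14, 401 kb apart (build mm9, annotation GENCODE M1), at chr14:115491437-116923659 and chr14:117324519-118378751, both on the plus strand.

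**Figure D1:**
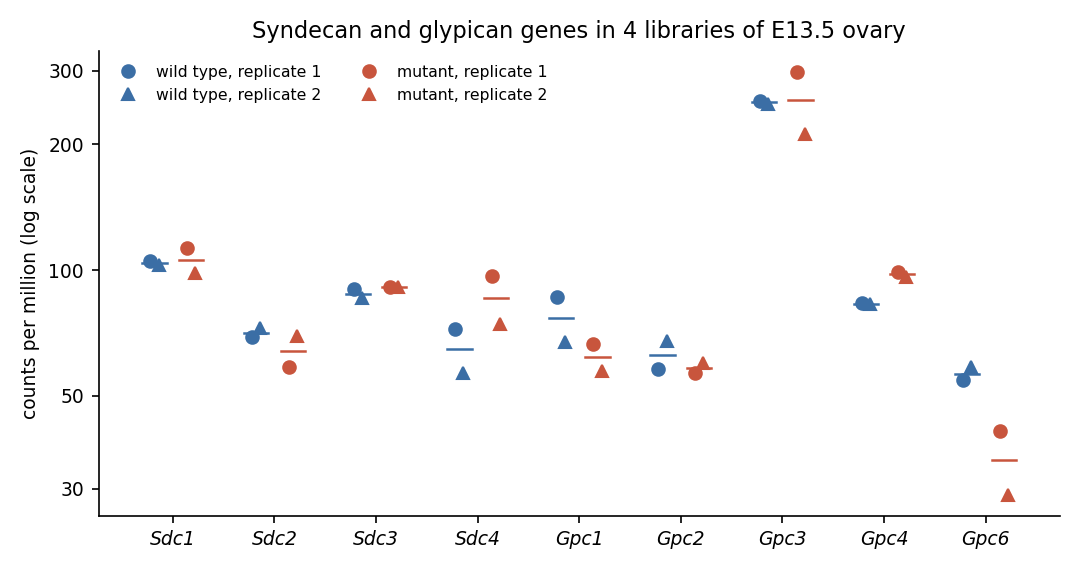
Level of each member except Gpc5 in each of the 4 libraries, in CPM on a log axis and not divided by length, with points for libraries and horizontal lines for the mean of each genotype. The points of Gpc6 lay apart, at 41.3 and 29.0 CPM in the mutant below 54.5 and 58.7 CPM in the wild type, while those of Gpc3 in the mutant lay on both sides of the wild type.

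The promoters are shown for the most abundant member (Gpc3), the member at the floor (Gpc5) and the member with the largest positive difference in the mutant (Sdc4), since these are the extremes of level and difference for which a promoter was at hand. They are RefSeq sequences of build GRCm38.p6, from 250 bases before to 50 after the gene's start, written 5′ to 3′ on the gene's strand with every CG dinucleotide in capitals. The Gpc3 sequence is chrX:52613925-52614224 (minus strand), that of Gpc5 is chr14:115091965-115092264 (plus strand) and that of Sdc4 is chr2:164443139-164443438 (minus strand).
Gpc3: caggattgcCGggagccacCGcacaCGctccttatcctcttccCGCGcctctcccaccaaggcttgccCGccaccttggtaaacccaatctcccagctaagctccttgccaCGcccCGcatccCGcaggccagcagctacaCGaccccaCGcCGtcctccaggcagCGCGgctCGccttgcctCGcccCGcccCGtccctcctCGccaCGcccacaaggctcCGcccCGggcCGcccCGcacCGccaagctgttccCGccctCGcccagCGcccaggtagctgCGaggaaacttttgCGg
Gpc5: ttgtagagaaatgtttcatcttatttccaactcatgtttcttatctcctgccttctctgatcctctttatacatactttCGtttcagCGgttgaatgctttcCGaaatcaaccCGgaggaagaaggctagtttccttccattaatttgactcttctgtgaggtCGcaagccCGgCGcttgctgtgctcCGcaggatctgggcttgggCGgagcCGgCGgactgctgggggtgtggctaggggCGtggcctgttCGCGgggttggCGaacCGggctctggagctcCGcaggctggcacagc
Sdc4: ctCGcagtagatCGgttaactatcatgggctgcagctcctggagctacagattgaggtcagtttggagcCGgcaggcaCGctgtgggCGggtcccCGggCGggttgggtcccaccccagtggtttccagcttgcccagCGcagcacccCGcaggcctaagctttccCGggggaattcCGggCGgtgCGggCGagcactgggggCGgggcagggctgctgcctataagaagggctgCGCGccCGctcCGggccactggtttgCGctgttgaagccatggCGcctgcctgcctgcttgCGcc

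All of them were rich in CG dinucleotides, and the sequence of the gene at the floor was among them. The Gpc3 promoter held 30 CGs, that of Sdc4 held 22 and that of Gpc5 held 17, against a median of 7 over the 32851 mouse promoters of the same length. At least as many CGs as in Gpc5 were found in 31.4% of all promoters, and at least as many as in Gpc3 in 11.7%. The GC box, searched as GGGCGG and its reverse complement CCGCCC, itself holds a CG and so overlaps that count. It was found 4 times in the Gpc3 promoter, 4 times in that of Sdc4 and 1 time in that of Gpc5. Of the 10 members 7 had a promoter entry, and all 7 held a GC box, as did 35.7% of all promoters. Sdc3 had the most CGs, at 44, a number reached by 2.25% of promoters. Sdc2, Gpc1 and Gpc6 had no entry.

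The summed level of the 10 cores was alike in the 2 genotypes, at 303 ± 37.9 in the mutant and 297 ± 6.71 in the wild type. Gpc3 made up 40.8% and 34.6% of that sum in the mutant against 37.9% and 38.6% in the wild type. The 4 syndecans together made up 33.7% and 36.4% in the mutant and 33.7% and 32.4% in the wild type. The wild-type shares of Gpc3 lay between the mutant ones, and for the syndecans mutant replicate 1 nearly met wild-type replicate 1.

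Within that sum Sdc4 and Gpc4 took a larger share in the mutant and Gpc1 and Gpc6 a smaller one. The share of Sdc4 was 11.5% ± 0.71 against 8.83% ± 1.30, and that of Gpc6 was 1.71% ± 0.21 against 2.82% ± 0.21 (SD, n = 2). The share of Gpc4 was 12.3% ± 1.30 against 10.5% ± 0.19, and that of Gpc1 was 5.70% ± 0.12 against 7.17% ± 1.11. For each of these genes the genotypes did not overlap. With the union of all exons the wild-type share of Gpc2 went from 8.18% to 3.05%.

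**Figure D2:**
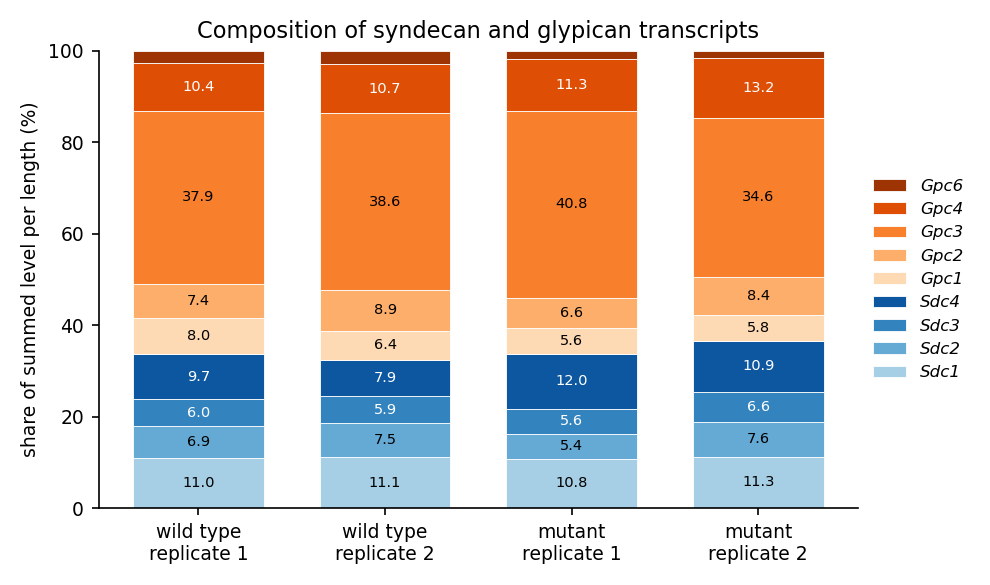
Share of each member in the summed length-scaled level of the 10 cores, in percent, for each library. Gpc3 took 34.6% to 40.8% in every library, and the Gpc6 share was 1.85% and 1.56% in the mutant against 2.67% and 2.97% in the wild type.

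The comparison of mutant with wild type asks which ovarian genes move when Sall1 is expressed from Wt1 regulatory elements. With genotype as the only factor in the fit, no syndecan or glypican passed the test. Of the 9 members tested, 0 had an adjusted p under 0.05 by edgeR, where 0.0583% of all genes tested did, and 0 by DESeq2, where 0.694% of genes did. At an unadjusted p under 0.05, edgeR gave 3 members (33.3%), Gpc6, Gpc4 and Sdc4, against 5.69% of all genes tested. DESeq2 gave 2 (Gpc6 and Sdc4), against 2.51% of genes. That last share is over the 22242 genes with at least 1 count, a wider set than the 15442 tested by edgeR. The mutant and wild-type libraries did not overlap for 5 members (55.6%), of which Sdc3, Sdc4 and Gpc4 were higher in the mutant and Gpc1 and Gpc6 lower, while 30.9% of all genes tested had groups that did not overlap. Mean levels were higher in the mutant for 5 members and lower for 4, with a median log2 difference of 0.016. The median size of the difference, regardless of sign, was 0.14 for the members and 0.11 for all genes tested. In this bulk tissue, fewer cells of a type and less RNA per cell cannot be told apart.

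**Figure D3:**
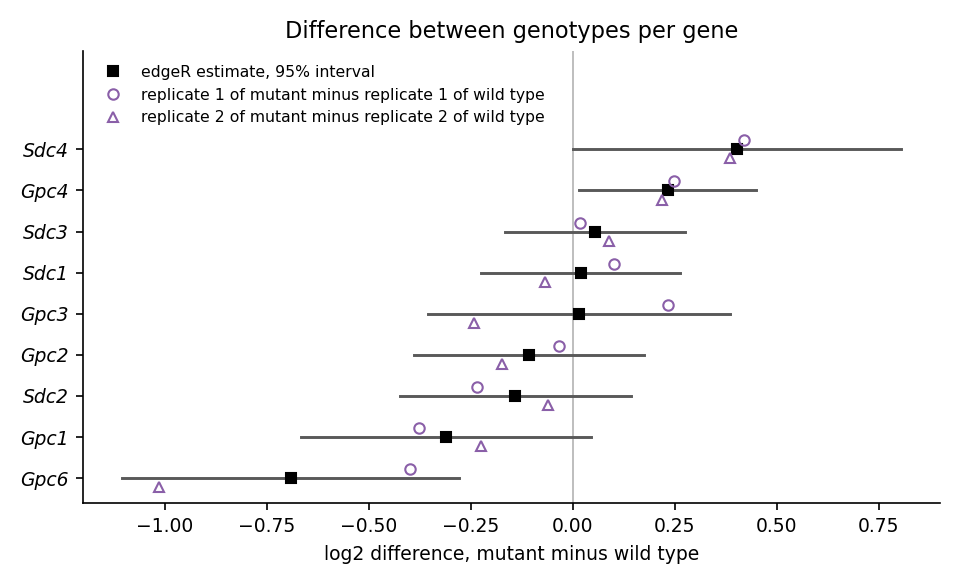
Log2 difference, mutant minus wild type, of the 9 tested members with 95% intervals from edgeR, and the differences between libraries of the same replicate number. The interval of Gpc6 lay farthest below 0, from -1.10 to -0.28, and those of Sdc4 and Gpc4 lay just above 0.

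Gpc6, a glypican needed for the growth of long bones, had the largest difference and was lower in the mutant. It was found at 41.3 and 29.0 CPM in the mutant and at 54.5 and 58.7 CPM in the wild type, from 455, 437, 937 and 1036 counts. Both mutant libraries were below both wild-type libraries, and mutant replicate 2 was the lowest of the 4. The log2 difference was -0.69 (SE 0.17, 95% interval -1.10 to -0.28), 0.619 times the wild-type level, with an adjusted p = 0.440 by edgeR and 0.0573 by DESeq2.

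Gpc6 passed the same test when mutant replicate 1 was left out. Without that library, edgeR gave a log2 difference of -0.96 with an adjusted p = 0.0122, in a fit where 0.81% of genes passed and where the lone mutant library was assumed to vary like the wild-type ones. Leaving out each library in turn gave differences of -0.96 to -0.46. A mutant and a wild-type library with the same replicate number carry neighbouring library numbers in the column names, and nothing in the labels says what they shared. Between the libraries numbered 1 the difference in Gpc6 was -0.40, and between those numbered 2 it was -1.02, with counting intervals of -0.56 to -0.24 and -1.18 to -0.85.

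Markers of interstitial cells were also lower for the most part, and mutant replicate 2 stood lowest. Of 6 stromal progenitor markers, 5 had a lower mean in the mutant, with a median log2 difference of -0.51, and none was at 0. Their summed level was 949 and 593 CPM in the mutant against 903 and 849 CPM in the wild type, so the groups overlapped in the sum. By DESeq2, 2 of the 6 passed, where 0.694% of all genes did. These were Pdgfra, a growth factor receptor of interstitial cells, and Tcf21, a transcription factor of the same cells. By edgeR 0 of the 6 passed, and 3 had an unadjusted p under 0.05, where 5.69% of all genes did. DESeq2 also called 2 of the 4 surface epithelium markers tested, Upk3b (edgeR log2 difference -0.72) and Lgr5 (0.61), as well as the pre-granulosa marker Bmp2. The part of stromal cell number in the Gpc6 values was not tested. Germ cell markers summed to 1488 and 1604 CPM in the mutant and 1439 and 1584 CPM in the wild type. Pre-granulosa markers summed to 634 and 629 CPM against 588 and 611 CPM, both mutant libraries being higher. That sum joins genes that differed in opposite directions, 6 of the 8 being higher and 2 lower. By edgeR 3 of the 8 had an unadjusted p under 0.05, where 5.69% of all genes did. They were Foxl2 (log2 difference 0.59), Irx3 (0.34) and Bmp2 (-0.80). Markers of the cells of a fetal ovary were thus present in every library. Summed endothelial markers ran from 427 to 484 CPM, and both mutant libraries were lower in the sum. Of the 7 endothelial markers, however, 4 were higher and 3 lower, with a median log2 difference of 0.0083. By edgeR 1 of the 7, Kdr (log2 difference -0.46), had an unadjusted p under 0.05, where 5.69% of all genes did. Summed markers of the surface epithelium ran from 219 to 257 CPM and those of mesonephric duct and tubule from 151 to 178 CPM. Macrophage markers summed to 39.0 to 65.3 CPM and Sertoli cell markers to 21.2 to 24.2 CPM. In these sums, from surface epithelium to Sertoli cells, the genotypes overlapped. Emx2, at 129 to 152 CPM, made up most of the mesonephric sum. Among 6 mesonephric markers tested, 3 were higher and 3 lower, and Pax8 (log2 difference 0.80) had an unadjusted p under 0.05 by edgeR. Among 5 Sertoli cell markers tested, 2 were higher and 3 lower, and Ptgds (1.75, from 20 to 67 counts) had such a p. So had 2 of 4 surface epithelium markers and 0 of 5 macrophage markers, where 5.69% of all genes did. Markers of glia and neural crest summed to 14.7 and 15.4 CPM in the mutant and to 25.6 and 21.2 CPM in the wild type. Both mutant libraries were lower, and of the 5 listed genes 2 were tested, both lower in the mutant. The globin genes Hba-a2, Hbb-b1 and Hbb-b2 and the macrophage gene Adgre1, under either of its symbols, were listed at 0. The Sertoli cell hormone gene Amh had 3 counts in each library, at the floor.

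The genes whose pattern over the 4 libraries was nearest to that of Gpc6, by the root mean square distance of centred log2 CPM, were Slc29a4 (0.018), BC060302_gene (0.039) and Cd40 (0.040). All of these were of low abundance, and of these Slc29a4 had 28, 27, 58 and 64 counts. Over 4 libraries such a likeness is a description only.

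Gpc1, a glypican of brain and skeletal muscle, was also lower in the mutant. It was at 66.5 and 57.4 CPM in the mutant and 86.4 and 67.1 CPM in the wild type. The groups did not overlap, although mutant replicate 1 and wild-type replicate 2 nearly met. The log2 difference was -0.31 (SE 0.15, 95% interval -0.67 to 0.046, adjusted p = 0.971 by edgeR), with values of -0.47 to -0.12 on leaving out 1 library at a time.

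Sdc4 had the largest difference in the other direction. Its level was 96.9 and 74.3 CPM in the mutant and 72.4 and 56.9 CPM in the wild type, means of 85.6 ± 16.0 and 64.7 ± 11.0 CPM (SD, n = 2). Both mutant libraries were above both wild-type libraries, but mutant replicate 2 and wild-type replicate 1 differed little. The log2 difference was 0.40 (SE 0.17, 95% interval 0.0011 to 0.80), 1.32 times the wild-type level, with an adjusted p = 0.874 by edgeR and 1.00 by DESeq2. In both genotypes replicate 2 was lower than replicate 1, while the difference was 0.42 between the libraries numbered 1 and 0.39 between those numbered 2. Leaving out 1 library at a time gave 0.20 to 0.59.

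Gpc4, a glypican of neural and renal progenitors, differed less and varied least. It was at 99.1 and 96.4 CPM in the mutant and 83.4 and 82.9 CPM in the wild type. The mutant libraries were both higher, and the gap between the groups was several times the gap within either. The log2 difference was 0.23 (SE 0.091, 95% interval 0.016 to 0.45, adjusted p = 0.842 by edgeR), or 1.18 times the wild-type level, and it stayed between 0.21 and 0.25 whichever library was left out.

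Gpc3 and Gpc4 lie next to each other on the X chromosome, 107 kb apart on the minus strand, at chrX:49625603-49967127 and chrX:49406198-49518429 (mm9). Gpc3 did not share the pattern of its neighbour. It was at 298 and 212 CPM in the mutant and 254 and 251 CPM in the wild type, so that the mutant libraries lay on both sides of the wild-type ones. The log2 difference was 0.016 (SE 0.16, 95% interval -0.36 to 0.39) and took values of -0.25 to 0.24 on leaving out 1 library at a time, so its sign was set by which mutant library was kept. Hs6st2, a heparan sulfate 6-O-sulfotransferase gene 371 kb from Gpc4 on the same chromosome, was at 134.6 and 133.3 CPM in the mutant and 107 and 103 CPM in the wild type. Its groups did not overlap, and the log2 difference was 0.35 (SE 0.088, adjusted p = 0.438 by edgeR). No difference between Gpc3 and its neighbours was tested.

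The 3 remaining syndecans were close between genotypes. Sdc3, a syndecan of the nervous system, was at 91.3 CPM in both mutant libraries and at 90.1 and 85.8 CPM in the wild type, with a log2 difference of 0.05 (95% interval -0.17 to 0.27). The groups did not overlap, but the highest wild-type value lay close below the mutant values. Sdc1 was at 113 and 98.2 CPM in the mutant and 105 and 103 CPM in the wild type, a log2 difference of 0.02 (95% interval -0.22 to 0.26). Sdc2, the syndecan of fibroblasts and mesenchyme, was at 58.7 and 69.6 CPM against 69.1 and 72.6 CPM, a log2 difference of -0.14 (95% interval -0.42 to 0.14). For Sdc1 and Sdc2 the groups overlapped. Leaving out 1 library at a time gave -0.27 to -0.027 for Sdc2, the smallest size being far below the value with all libraries, and 0.030 to 0.090 for Sdc3.

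Gpc2 was at 56.6 and 60.0 CPM in the mutant and 58.0 and 67.6 CPM in the wild type, and the groups overlapped. The log2 difference was -0.11 (95% interval -0.39 to 0.18). In GENCODE M1, 38.8% of the exon bases of Gpc2 are shared with Gal3st4 on the same strand and 10.6% with 6330418K02Rik on the opposite strand. Gal3st4 had 19, 39, 29 and 27 counts, against 624, 902, 998 and 1193 for Gpc2, and how the authors' counting split or dropped reads in the shared bases was not tested. Sdc3 shares 0.801% of its exon bases with a gene on the opposite strand, and the other members share none.

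The genes that build, trim and bind heparan sulfate, other proteoglycan cores including those with chondroitin and dermatan sulfate, and protein partners were taken from 6 lists of 101 genes, of which 92 were tested. By edgeR 0 of the 92 passed, where 0.0583% of all genes tested did. At an unadjusted p under 0.05, 4 were higher and 6 lower, against 5.69% of all genes. The median log2 difference was -0.018, beside -0.00088 over all genes tested, with 42 genes higher and 50 lower in the mutant. By DESeq2 1 gene passed, Bmp2, where 0.694% of all genes did. Without mutant replicate 1, edgeR called 3 of the listed genes, in a fit where 0.81% of genes passed: Bmp2 (log2 difference -0.89), the matrix proteoglycan gene Dcn (-0.82) and Wnt5a (-0.73).

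Of 33 genes of heparan sulfate synthesis 29 were tested, and 13 were higher and 16 lower, with a median log2 difference of -0.025. Ndst4, a deacetylase/sulfotransferase that starts sulfation, was at 0.635 and 0.399 CPM in the mutant and 2.09 and 1.19 CPM in the wild type, a log2 difference of -1.68 (SE 0.53, adjusted p = 0.653 by edgeR) from only 6 to 36 counts. Papss2, which makes the sulfate donor, was at 12.5 and 13.4 CPM against 9.47 and 9.12 CPM, a log2 difference of 0.48 (adjusted p = 0.756). Both had groups that did not overlap, but they were picked by their p in the same libraries, so this adds no support. The abundant 6-O-sulfotransferase Hs6st1 ran from 179 to 229 CPM with a difference of -0.035, and Papss1 differed by -0.049. Pxylp1, the xylose phosphatase, was listed at 0 in every library under this symbol and under its other symbol Acpl2, and its expression was not judged from these listings.

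Among 12 genes that edit or degrade the chains, 8 were higher and 4 lower, with a median log2 difference of 0.082. Sulf1 and Sulf2 remove 6-O-sulfates outside the cell. Sulf1 was at 492 and 543 CPM in the mutant and 422 and 514 CPM in the wild type, and Sulf2 was at 145 and 120 CPM against 165 and 148 CPM, with log2 differences of 0.15 and -0.24. Sulf1 overlapped between the genotypes and Sulf2 did not. The lysosomal enzyme Naglu was at 17.3 and 20.5 CPM against 15.9 and 14.6 CPM, a log2 difference of 0.32, and Gusb differed by -0.16.

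Of the other heparan sulfate cores, such as those of basement membranes, 9 of 10 were tested, 4 higher and 5 lower, with a median log2 difference of -0.034. Col18a1 was at 488 and 467 CPM against 452 and 420 CPM, a log2 difference of 0.13, and Agrn differed by -0.067, Spock2 by 0.22 and Srgn by -0.49. The value of Srgn came from only 24 to 53 counts. Of 9 chondroitin and dermatan sulfate cores 8 were tested, 3 higher and 5 lower, with a median log2 difference of -0.30, and 3 had an unadjusted p under 0.05, where 5.69% of all genes did. Those were Cspg4, a pericyte proteoglycan, at 20.5 and 20.5 CPM against 26.9 and 25.7 CPM (log2 difference -0.36), Vcan, a large matrix proteoglycan, at 99.4 and 73.3 CPM against 62.4 and 66.2 CPM (0.42), and Bgn, a small leucine-rich proteoglycan, at 132 and 105 CPM against 165 and 139 CPM (-0.37). All of them had groups that did not overlap. They were picked by their p in the same libraries, so this adds no support. The share of 30.9% over all genes tested, which were not picked so, is not a like comparison. Dcn was at 113 and 56.9 CPM in the mutant and 97.0 and 104 CPM in the wild type, again on both sides, with mutant replicate 2 lowest.

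The 12 partners and shedding proteases were split 6 and 6, with a median log2 difference of 0.010, and 0 had an unadjusted p under 0.05. Tiam1, an activator of Rac that binds Sdc1, differed by 0.24, the sheddases Adam10 and Mmp9 by 0.10 and -0.62, and Mmp14 by -0.00035. The value of Mmp9 came from only 11 to 35 counts, and its groups overlapped. Of 25 listed ligands 22 were tested, 8 higher and 14 lower, with a median log2 difference of -0.13. Bmp2 was at 25.0 and 21.9 CPM in the mutant and 42.7 and 38.5 CPM in the wild type, a log2 difference of -0.80 (SE 0.13, adjusted p = 0.167 by edgeR and 0.0093 by DESeq2). Bmp4 was at 8.26 and 11.2 CPM against 4.59 and 5.16 CPM, a log2 difference of 1.00 (SE 0.25, adjusted p = 0.428 by edgeR). Wnt5a was at 79.3 and 55.1 CPM against 93.8 and 89.3 CPM, a log2 difference of -0.45. None of these ligands had groups that overlapped, but they were picked by their p in the same libraries, so this adds no support. The abundant growth factor genes Igf2 and Mdk differed by 0.18 and -0.21.

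**Figure D4:**
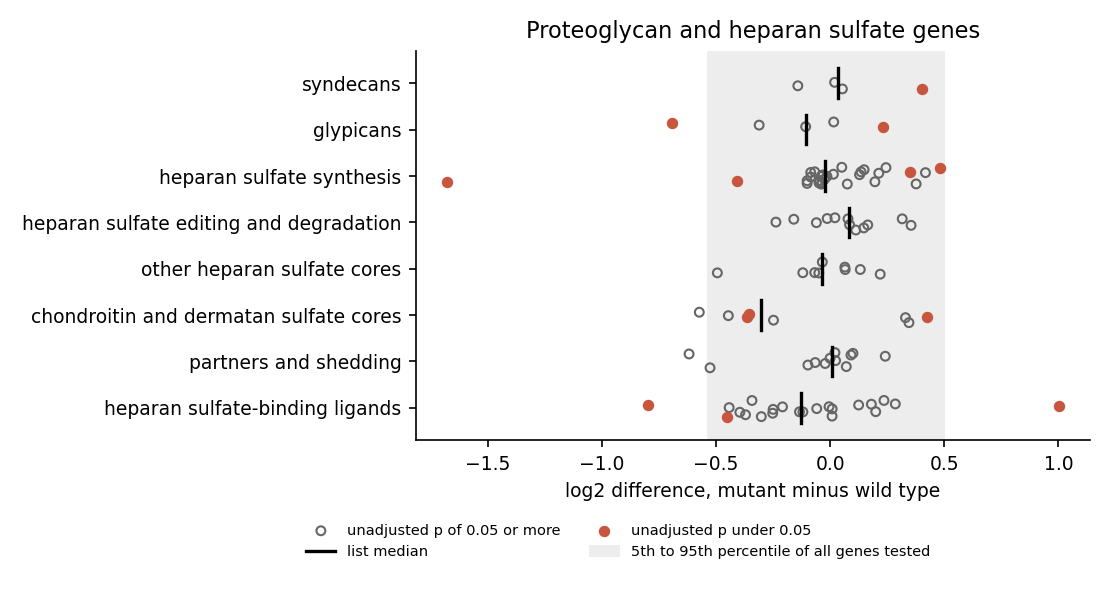
Log2 difference, mutant minus wild type, of each tested gene of the members and the 6 heparan sulfate lists, with the median of each as a line, genes at an unadjusted p under 0.05 as filled points and the range from the 5th to the 95th percentile of all genes as a grey band. The medians ran from -0.30 for the chondroitin and dermatan sulfate cores to 0.082 for the genes that edit or degrade heparan sulfate, and the single genes spread to both sides of 0 in every list.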

How the data were processed

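RNA was measured by bulk RNA-seq in 2 mutant and 2 wild-type libraries. The authors counted reads per gene with summarizeOverlaps and deposited the raw counts, not normalized or pooled. The submitters' processing notes name STAR 2.6.1d and build mm9. The annotation and the handling of strand are not given in the sources used here. The 4 count columns were each assigned by genotype and replicate, leaving 0 columns unused.

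Fits were made in R 4.3.3. The package edgeR 4.0.16 was run with TMM scaling, filterByExpr, trended dispersion and the quasi-likelihood test over all genes, with genotype as the only factor and Benjamini-Hochberg adjustment at 0.05. DESeq2 1.42.0 was an alternative, as were other scalings, filters, a replicate block and leaving out each library. With 2 against 2 libraries an exact permutation test cannot give a p below 0.333. Depth was 11036313 to 17869840 counts, and the floor of 3 counts and the intervals between libraries cover counting error only.

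Gene positions and lengths came from GENCODE M1 on NCBIM37, the same build as mm9, and promoters from RefSeq on GRCm38.p6. The members and lists were chosen with earlier results of these data known. The genes named were all members and, in each list, the 3 with the smallest p and the 2 of highest level, plus the 3 nearest to Gpc6. Pdgfra, Tcf21, Upk3b, Lgr5, Foxl2, Irx3, Kdr, Emx2, Pax8, Ptgds, Amh, the genes listed at 0 and those that overlap Gpc2 were named after their values were seen.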

Additional observations from a re-analysis of the deposited data

How the results depend on the processing

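Of the 9 members tested, 6 kept their sign under every alternative, and of 30 other named genes 22 did. Members called stayed at 0 under the other scalings and filters and under DESeq2. With the replicate block edgeR called 2, Sdc4 (log2 difference 0.40, adjusted p = 0.0283) and Gpc6 (-0.71, adjusted p = 0.0069). In that fit 2.49% of all genes passed. DESeq2 with the block called 0 members, with an adjusted p = 0.559 for Sdc4 and 0.0600 for Gpc6. Nothing in the labels says that same-numbered libraries share a source, there are only 2 pairs, and their deviations from the group means correlated at 0.481. Of the listed genes, 0 were called, 1 with DESeq2, 6 with edgeR and the replicate block (Bgn, Bmp2, Bmp4, Ext1, Hs6st2 and Wnt5a), 1 with DESeq2 and the block, and 0 to 3 without each library. Over all genes, 9 were called, 10 with either other scaling, 28 with no filter, 19 with at least 10 counts in every library, 105 with DESeq2, 385 with edgeR and the replicate block, 118 with DESeq2 and the block, and 4 to 130 without each library. With the block the difference of Gpc3 was -0.0040 by edgeR and -0.0086 by DESeq2. Leaving out each library gave differences of -0.085 to 0.12 for Sdc1, -0.21 to 0.019 for Gpc2, -0.25 to 0.24 for Gpc3, -0.0029 to 0.19 for Adam10, -0.15 to 0.027 for Agrn, -0.82 to 0.17 for Dcn, -0.20 to 0.15 for Hs6st1, -0.079 to 0.40 for Igf2, -0.040 to 0.035 for Mmp14, -1.15 to 0.25 for Mmp9 and -0.13 to 0.050 for Papss1. The cause was not tested. Gpc5 was under the floor at the depth of these libraries, 2 libraries a group set the width of the intervals, and a group of 1 was assumed to vary like the other group.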

Other observations

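Within the families of enzymes that build the chains, some members carried most of the transcript in both genotypes, on the scale of CPM per kilobase. Of the 6-O-sulfotransferases, Hs6st1 was at 54.0 ± 8.12 (SD, n = 2) in the mutant and 55.3 ± 8.71 in the wild type, Hs6st2 at 30.8 ± 0.214 and 24.2 ± 0.564, and Hs6st3 at 0.223 ± 0.0486 and 0.224 ± 0.0327. Of the N-deacetylase/N-sulfotransferases, Ndst1 and Ndst2 were near each other at 18.2 ± 0.822 and 17.3 ± 0.183 in the wild type, and Ndst3 and Ndst4 at 0.0989 ± 0.0384 and 0.470 ± 0.183. In the mutant Ndst1 and Ndst2 were at 18.4 ± 0.206 and 18.3 ± 0.888, and Ndst3 and Ndst4 at 0.132 ± 0.0681 and 0.148 ± 0.0479. The chain polymerases Ext1 and Ext2 were at 13.9 ± 2.13 and 36.3 ± 0.129 in the wild type and at 10.5 ± 1.68 and 34.2 ± 0.0121 in the mutant. The log2 difference of Ext1 was -0.41 (95% interval -0.77 to -0.045, adjusted p = 0.806 by edgeR). Its groups did not overlap, as was so for 30.9% of all genes tested. These genes were chosen after their values were seen, and the levels are a description with no test between genes.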
